A study of Mus musculus with 6 samples.

Results

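Chromatin accessibility was examined at 10 nuclear receptor genes that act in myeloid differentiation: Rara, Rarg, Rxra, Pparg, Vdr, Rora, Nr3c1, Nr4a1, Nr4a2 and Nr4a3. A region belonged to a receptor gene when it overlapped the annotated gene body, or the 50 kb to either side of it, in a table of regions whose ATAC-seq signal differed between 2 groups of leukemic mouse cells. By this rule 22 of the 10016 regions in the table lay at 9 of the 10 genes. Nr4a2 had none.

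The cells were mouse fetal liver cells transformed by the retrovirally delivered MLL-ENL fusion oncogene and grown with interleukin 3. WT cells were labelled wild-type, and by the methods of the study their Cebpa and Cebpb alleles were floxed but intact. The dKO cells were deleted for both Cebpa and Cebpb, which encode C/EBPα and C/EBPβ, and expressed exogenous GFP, for which the WT labels have no counterpart. The dKO lines were rare clones that survived the deletion, so that clonal differences, the vector and the genotype cannot be told apart. The paper reports that all recovered dKO clones strongly expressed C/EBPε, another protein of the same family. Its part in the changes below cannot be told apart either. Each group had 2 libraries, and nothing in the sources used here says whether those came from separate cultures. The third group, dKO cells with the rat C/EBPβ isoform LAP*, was not analysed here.

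ATAC-seq counts where the Tn5 transposase inserts adapters into open DNA, so that more reads over a region mean a more accessible region. The level of a region is given as the log2 of the mean normalised reads of a group, as deposited, and a change is the dKO level minus the WT level. The table gives 1 mean per group and none per library. There is therefore no replicate error and no test of any change, and the 95% intervals below cover counting error only. They were computed from the approximate read number behind each mean, taking the lowest level in the table, -0.15, as 1 read in each of the 2 libraries. Reads copied by PCR are not independent molecules, so the true error is larger. The table was restricted by the authors to regions past their own significance cutoff, so every region below is one that they called changed, and a gene without a region has no listed change. The deleted genes were the first check of the labels. A region over Cebpa had a level of 9.99 in WT and -0.15 in dKO, and the 2 regions over Cebpb went from 8.60 to 3.37 and from 7.38 to -0.15.

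Nuclear receptors are transcription factors, most of which are switched by small lipophilic ligands. RXRα (Rxra) is the shared partner with which the retinoic acid receptors, PPARγ and the vitamin D receptor bind DNA as heterodimers, whereas RORα binds as a monomer, the glucocorticoid receptor (Nr3c1) as a homodimer, and the NR4A proteins are immediate-early factors that need no ligand. In the myeloid lineage retinoic acid and vitamin D promote granulocytic and monocytic maturation, and PPARγ is a regulator of lipid handling in macrophages.

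Of the 22 regions, 12 were more accessible in dKO and 10 were less accessible. The regions were higher at Rara, Rarg, Pparg, Nr3c1 and Nr4a1, and lower at Rxra, Vdr, Rora and Nr4a3. The share of higher regions was 54.5%, against 60.3% among all 10016 regions in the table, and the share of lower regions was 45.5% against 39.7%. At least 2-fold changes were found upwards at 11 regions (50%, against 49.6% of all) and downwards at 10 (45.5%, against 35.9% of all). The sizes of the changes were those of the table at large, with a median of 1.58 for the higher regions (1.58 over all higher regions) and of -1.81 for the lower regions (-1.85 over all lower regions). The median over all 22 was 0.99, beside 0.98 for the whole table, but with 12 rises and 10 falls it is set by the smallest rises, and it was 0.04 over the 12 regions assigned by the nearest start site.

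**Figure D1:**
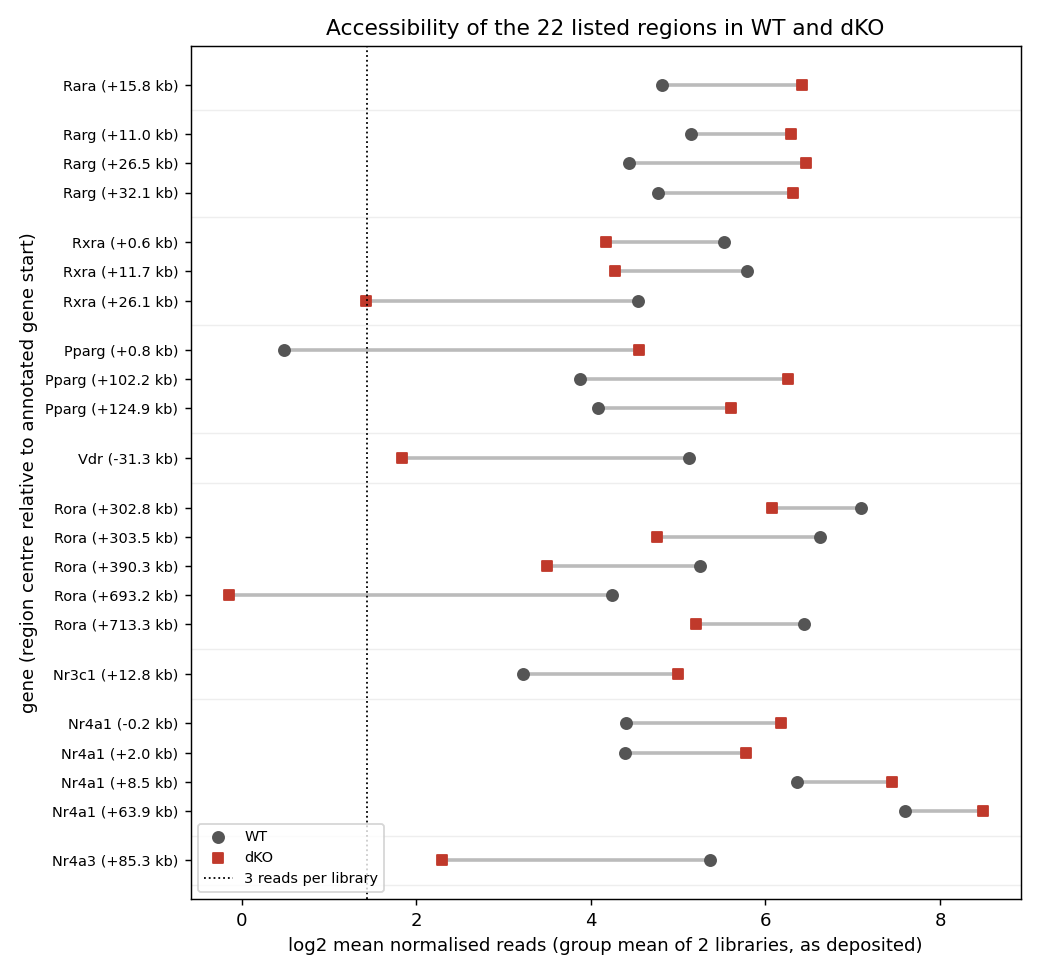
Each line is 1 of the 22 regions, with the WT level as a gray circle and the dKO level as a red square on the log2 scale of mean normalised reads; the number beside the gene is the distance from the annotated gene start to the region centre, and the dotted line marks 3 reads per library. The squares lie right of the circles at Rara, Rarg, Pparg, Nr3c1 and Nr4a1 and left of them at Rxra, Vdr, Rora and Nr4a3, with the Pparg region at 0.49 in WT and the Rora region at -0.15 in dKO left of the dotted line.

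Having a changed region is common for a gene: 47.5% of 21755 protein-coding genes had 1 or more under the same rule. The 22 regions corresponded to 0.97 regions per 100 kb of window, against 0.59 over the windows of all protein-coding genes, which overlap one another. The 5 receptor genes with 2 or more regions each changed in 1 direction within the window. Among the 4878 protein-coding genes with 2 or more regions this held for 64.1%, and neighboring regions are not independent. With a window of 100 kb the single direction still held at Rxra and Nr4a1, but lower regions came in at Rarg (-0.87 and -1.61) and Pparg (-1.55) and a higher region at Rora (0.64). At the edge of the window, the outermost region inside it lay 43.9 kb from the body of Nr4a3, with a change of -3.06, and the first region outside it lay 51.3 kb from Nr4a1, with a change of 0.96.

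**Figure D2:**
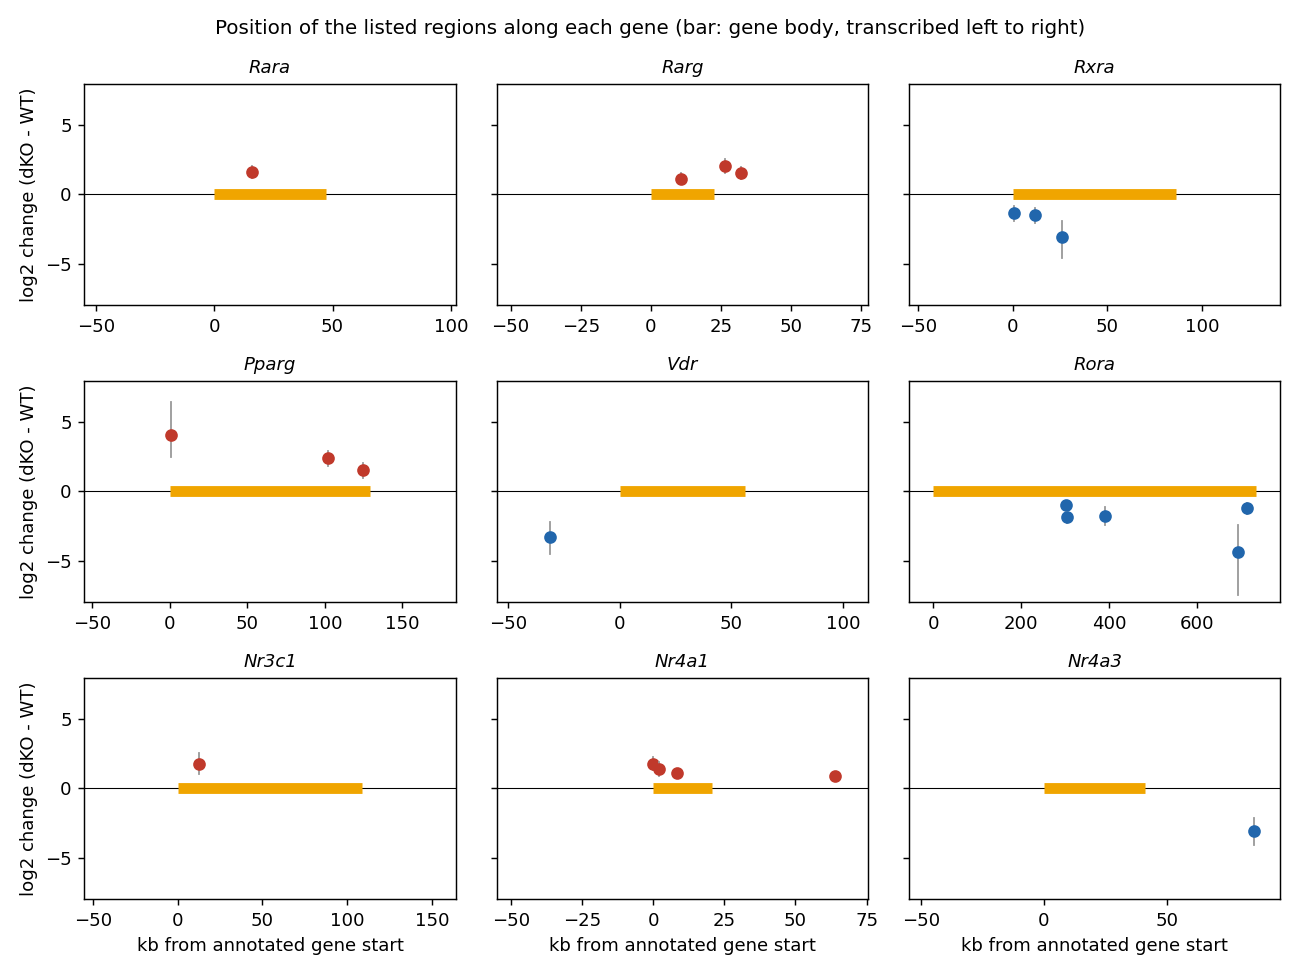
The log2 change (dKO minus WT, vertical axis) of each region is plotted against its distance in kb from the annotated gene start, with the gene body as an orange bar transcribed from left to right, red points for higher and blue points for lower regions, and gray lines for the 95% counting intervals. Rxra and Rora had all their regions inside the gene body, 3 and 5 in number, whereas the regions of Vdr and Nr4a3 lay outside it.

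Rxra, the common heterodimer partner, was less accessible at its promoter and at 2 sites within the gene body. The promoter region (chr2:27676761-27677364), which spans an annotated start site, went from 5.52 in WT to 4.17 in dKO. This is a change of -1.35, with a counting interval of -1.92 to -0.81. A region 10693 bp downstream of a start site (chr2:27687955-27688360) went from 5.79 to 4.28, a change of -1.51 (-2.05 to -1.004). The third region (chr2:27702362-27702626), an intronic one 6666 bp upstream of the next internal start site, had the largest fall of the 3, from 4.54 to 1.43, or -3.11 (-4.63 to -1.90). Its dKO level rests on about 6 reads over both libraries, which is 3 reads per library, against about 52 in WT.

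The Rxra promoter and the third Rxra region differ in base composition as well as in the size of the change. The first is shown as a region over a start site, and the second as a fall among the 3 largest by deposited means. The promoter stretch (mm10, chr2:27676963-27677162, plus strand) has a GC content of 80.5% and 33 CpG dinucleotides in 200 bp. The intronic stretch (chr2:27702394-27702593, plus strand) has 63.5% and 2. Capitals mark the C/EBP consensus, which was searched as TTGCNNAA or TTACNNAA on both strands.
Rxra promoter: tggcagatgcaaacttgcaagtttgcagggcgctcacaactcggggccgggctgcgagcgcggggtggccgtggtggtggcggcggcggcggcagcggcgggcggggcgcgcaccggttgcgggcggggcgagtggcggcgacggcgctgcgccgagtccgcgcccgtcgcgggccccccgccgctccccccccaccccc
Rxra intron: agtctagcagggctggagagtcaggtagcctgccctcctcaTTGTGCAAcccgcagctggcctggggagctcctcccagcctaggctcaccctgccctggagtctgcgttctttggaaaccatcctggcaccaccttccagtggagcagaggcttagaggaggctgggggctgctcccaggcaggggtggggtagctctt

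The retinoic acid receptors themselves went the other way. Rara, the receptor that is fused to PML in acute promyelocytic leukemia, had 1 region, in an intron 3725 bp downstream of one of its start sites (chr11:98943437-98943705). Its level was 4.81 in WT and 6.42 in dKO, a change of 1.61 (1.20 to 2.05). Rarg, which encodes RARγ, had 3 regions. One of them (chr15:102246441-102246662) lay over an internal Rarg start site and went from 5.15 to 6.29, a change of 1.14 (0.75 to 1.54). It overlaps 1 of the 2 Rarg promoters in RefSeq (GRCm38.p6), and no listed region overlaps the other.

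The other 2 Rarg regions lay past the 3′ end of the gene, in introns of the neighboring integrin gene Itgb7 by the GENCODE annotation. At 649 bp from an Itgb7 start site, the region chr15:102230804-102231259 went from 4.44 to 6.47, a change of 2.03 (1.58 to 2.52). The region chr15:102225154-102225746 went from 4.77 to 6.32, a change of 1.55 (1.11 to 1.98). Both are nearer to a start site of Itgb7 than to one of Rarg, and which gene they act on was not tested. The region nearest to Itgb7 was the only one of the 22 with the nuclear receptor core element AGGTCA in its central 200 bp. The stretch at the internal Rarg start site (mm10, chr15:102246501-102246651, plus strand) is shown because, with that of Nr4a1, it is 1 of the 2 higher regions over a receptor start site. Bases annotated as untranslated were left out of it.
Rarg internal promoter: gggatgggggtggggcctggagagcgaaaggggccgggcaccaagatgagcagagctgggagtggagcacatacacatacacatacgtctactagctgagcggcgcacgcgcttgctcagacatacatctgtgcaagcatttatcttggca

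Pparg held the largest rise among the receptors. A region 318 bp upstream of a Pparg start site and annotated as intronic (chr6:115361513-115361974) had a level of 0.49 in WT and 4.55 in dKO. The WT level corresponds to about 3 reads over both libraries and the dKO level to about 52. The ratio was 16.7, a log2 change of 4.06 with a wide counting interval of 2.49 to 6.44. The WT level lies under a floor of 3 reads per library, and set against that floor the ratio was 8.66. A region over a Pparg exon 22903 bp downstream of the nearest Pparg start site (chr6:115462878-115463342) went from 3.88 to 6.26, a change of 2.38 (1.82 to 2.95), and a last intronic region (chr6:115485632-115485981) went from 4.08 to 5.61, a change of 1.53 (0.96 to 2.08). The Pparg regions had 3 of the 4 lowest WT levels among the 22.

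The stretches at the Pparg start (mm10, chr6:115361644-115361714) and in its coding exon (chr6:115463103-115463209), both on the plus strand, are shown for having the largest rises. Bases annotated as untranslated, predicted transcripts included, were left out. No motif searched was found in either region's central 200 bp.
Pparg start: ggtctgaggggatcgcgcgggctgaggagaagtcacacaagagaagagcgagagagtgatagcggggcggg
Pparg exon: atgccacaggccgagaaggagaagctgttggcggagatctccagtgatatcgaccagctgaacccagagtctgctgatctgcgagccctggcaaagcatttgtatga

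Vdr, the vitamin D receptor gene, had 1 region, located between genes 31109 bp upstream of its nearest start site (chr15:97941739-97942068). It went from 5.13 in WT to 1.84 in dKO, a change of -3.29 (-4.55 to -2.24), with about 78 and 8 reads. A start site of Tmem106c, at 22132 bp, is nearer than that of Vdr. No listed region overlapped the Vdr body or its RefSeq promoter.

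Rora is the longest of the 10 genes, with 734461 bp, and had the most regions. All 5 were intronic and less accessible in dKO. The 2 regions nearest to the gene start were separated by 108 bp and lay 238627 and 238080 bp upstream of the next Rora start site. The first of them (chr9:68956221-68956914) went from 7.09 to 6.08, a change of -1.01 (-1.30 to -0.72), and its neighbor (chr9:68957023-68957461) from 6.63 to 4.76, a change of -1.87 (-2.31 to -1.46). Their counting intervals do not overlap, so that 2 adjoining regions changed by unequal amounts as far as counting error goes.

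Farther along Rora, the region chr9:69043961-69044261 went from 5.25 to 3.50, a change of -1.75 (-2.46 to -1.09), and the region chr9:69366715-69367481 from 6.44 to 5.21, a change of -1.23 (-1.63 to -0.86). The region chr9:69346839-69347102 had the lowest dKO level among the receptors and went from 4.24 in WT to -0.15 in dKO, which is the lowest level in the table. Set against a floor of 3 reads per library, the fall between the deposited means was 6.99-fold. The counting interval of the change was -7.48 to -2.45, so that falls as small as 5.46-fold lie within counting error. Neither value places this fall above or below the 9.78-fold fall upstream of Vdr. The next lowest dKO level at Rora was 3.50. By protein-coding genes, the start site nearest to this region and to the last one is that of Ice2, at 50804 and 30425 bp. Per 100 kb of window Rora had 0.60 regions, close to the 0.59 over all protein-coding gene windows.

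The Vdr region and the Rora region at -0.15 are shown as falls among the 3 largest by deposited means, and the single Nr4a3 region as the fourth. Each holds a C/EBP consensus, in capitals. All are given on the plus strand of mm10. The Vdr stretch is chr15:97941804-97942003, the Rora stretch chr9:69346871-69347070 and the Nr4a3 stretch chr4:48130390-48130589. The Nr4a3 stretch was added after its values were seen.
Vdr upstream: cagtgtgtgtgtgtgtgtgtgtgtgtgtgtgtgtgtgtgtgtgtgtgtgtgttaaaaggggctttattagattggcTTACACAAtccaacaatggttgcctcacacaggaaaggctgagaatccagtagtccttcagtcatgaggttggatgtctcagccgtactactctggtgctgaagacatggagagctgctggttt
Rora intron: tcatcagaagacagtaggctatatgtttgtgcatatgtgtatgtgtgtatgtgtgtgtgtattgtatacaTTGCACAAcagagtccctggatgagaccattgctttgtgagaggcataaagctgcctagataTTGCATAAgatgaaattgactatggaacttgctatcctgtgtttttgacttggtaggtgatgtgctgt
Nr4a3 downstream: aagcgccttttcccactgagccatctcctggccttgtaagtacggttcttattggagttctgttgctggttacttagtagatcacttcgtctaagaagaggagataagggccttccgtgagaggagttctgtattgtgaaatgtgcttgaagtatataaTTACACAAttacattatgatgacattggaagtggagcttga

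Nr3c1, the glucocorticoid receptor gene, had 1 intronic region, 12680 bp downstream of a start site (chr18:39506502-39506741). Its level was 3.22 in WT and 5.00 in dKO, a change of 1.78 (1.04 to 2.54). It held 2 matches to the AP-1 strings TGACTCA or TGAGTCA in its central 200 bp. Only 2 other regions held any, the second one in Rxra and one downstream of the Nr4a1 promoter.

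The 3 NR4A genes, which respond within minutes to hours to cytokines and growth factors, gave 3 different pictures. Nr4a1 had 4 regions and all were more accessible in dKO. The region over an Nr4a1 start site (chr15:101253936-101254272) went from 4.40 to 6.18, a change of 1.78 (1.299 to 2.28), and a region 1796 bp downstream (chr15:101256065-101256492) from 4.39 to 5.78, a change of 1.39 (0.88 to 1.89). The region chr15:101262524-101262967, in an intron 3879 bp upstream of an internal start site, went from 6.36 to 7.45, a change of 1.09 (0.83 to 1.35). The fourth (chr15:101317828-101318516), 43033 bp past the end of the gene in an exon of the unnamed gene model Gm49499, had the highest levels of the 22, with 7.60 and 8.49. Its change of 0.89 (0.72 to 1.06) was the smallest of the 22 and the only one among them to change sign when the table's median of 0.98 was subtracted.

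The promoter stretch of Nr4a1 (mm10, chr15:101254004-101254203, plus strand) is shown beside that of Rxra, since both are rich in CpG but changed in opposite directions. It has a GC content of 75.5% and 30 CpG dinucleotides in 200 bp and held no motif searched.
Nr4a1 promoter: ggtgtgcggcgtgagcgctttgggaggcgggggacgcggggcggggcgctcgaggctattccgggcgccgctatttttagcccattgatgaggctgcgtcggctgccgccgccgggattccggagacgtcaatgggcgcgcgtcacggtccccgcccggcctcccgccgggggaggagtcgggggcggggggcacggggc

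Nr4a3 had a single region, 43.9 kb past the end of the gene in an intron of the syntaxin gene Stx17 (chr4:48130301-48130679). It went from 5.36 to 2.30, a change of -3.06 (-4.10 to -2.14), with about 91 and 11 reads. It lies 5366 bp from a start site of Stx17 and 79053 bp from one of Nr4a3, so that its place among the receptor regions comes from the window alone. Nr4a2 had no listed region, and the nearest lay 66.8 kb away with a change of 1.22.

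By position, 17 of the 22 regions were in the body of their receptor gene and 5 were outside it (77.3% in the body, against 30.0% over the windows of all protein-coding genes, where a region may count for several genes and genes differ in length). A start site of their own gene lay within 1 kb of 4 regions, at Rxra, Rarg, Nr4a1 and Pparg (18.2%, against 8.05% over those windows). For 12 of the 22 the nearest annotated start site belonged to a receptor gene, and for 15 it did when protein-coding genes alone were considered. The RefSeq table gave 16 promoter windows for 9 of the 10 genes, Nr3c1 being named only, and 2 of these were overlapped by a listed region (12.5%, against 2.85% of all 32619 promoters). The region at the Nr4a1 start site lies upstream of the only Nr4a1 promoter in that table.

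The C/EBP consensus was the motif of most interest, because the deleted genes encode factors that bind it. C/EBPε, a further member of this family, was expressed in the dKO clones by the paper's account, and its binding was not tested here. In the central 200 bp it occurred in 6 of the 22 regions (27.3%), against 28.3% of all regions in the table. Among the receptors it was found in 4 of the 10 lower regions, against 40.8% of all lower regions, and in 2 of the 12 higher regions, against 20.1% of all higher regions. The carriers among the lower regions were the 4 with the largest differences between the deposited means, -3.06 to -4.39. They lay in Rxra, upstream of Vdr, in Rora and past Nr4a3. However, set against the floor the Rora fall was only 6.99-fold, and its counting interval reached down to 5.46-fold. None of the other 6 lower regions had it in the central 200 bp. When whole regions were searched, 12 of the 22 carried it (42.9% of all regions in the table), among them the same 4 and 3 of the other 6 lower regions. With TTGCNNAA alone, 3 of the 22 did (19.3% of all), among them 2 of the 4 and none of the 6. This order was noticed after the values were seen, and over the whole table the share depended little on the size of the deposited difference: 43.4% of 640 regions with falls of 8-fold or more, 44.0% of 1090 with 4- to 8-fold falls and 38.4% of 2251 with falls under 4-fold held the consensus. The higher regions with a consensus were that over the internal Rarg start site, where it lies in the bases left out of the printed stretch, and the last Pparg region.

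Counts of the other motifs were small. AP-1 strings occurred in 3 regions (13.6%, against 17.9% of all), the RUNX string AACCACA in 1 (4.55% against 11.9%) and the PU.1 string GAGGAAGT in 1 (4.55% against 9.21%). The core element AGGTCA, which most non-steroid nuclear receptors bind, was in 1 region (4.55% against 15.3%). The longer NR4A element AAAGGTCA, which contains it, was in none (1.13% of all regions). The steroid receptor core element AGAACA was in 1, the second Rxra region (4.55% against 14.6%). A match of letters is not a bound site, and these windows say nothing on motifs elsewhere in the genes.

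**Figure D3:**
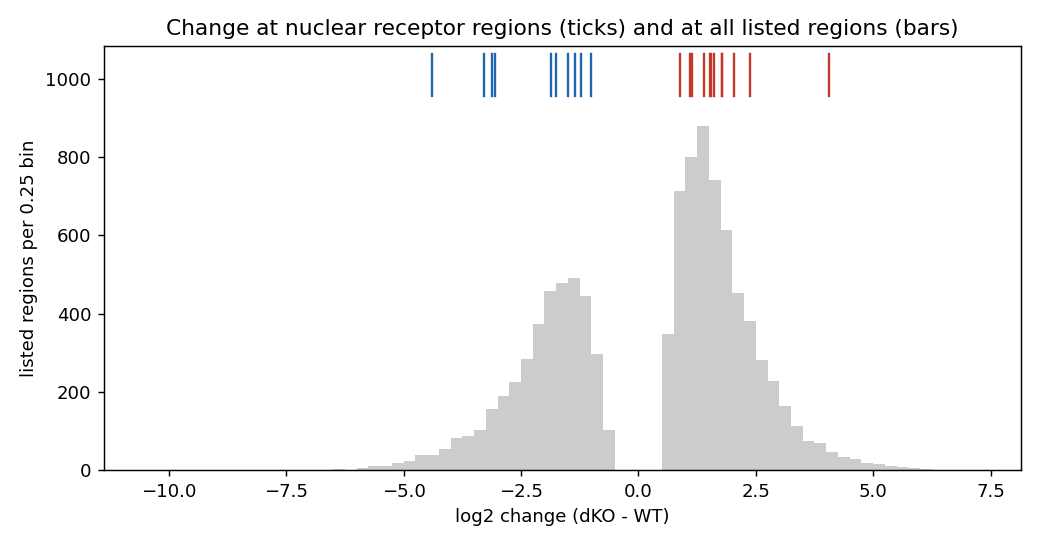
Gray bars count all 10016 regions by log2 change (dKO minus WT) in bins of 0.25, and the ticks above mark the 22 receptor regions, red for higher and blue for lower. The ticks run from -4.39 to 4.06, whereas the bars run from -10.14 to 6.82, and the gap around 0 arises because the table holds no unchanged regions.

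Other genes of the receptor network were counted under the same window. Of 38 further nuclear receptor genes, 24 had a listed region (47.5% of all protein-coding genes had one), with 20 regions higher and 20 lower in dKO (50% higher, against 60.3% of all). The median change was -0.20, against 0.98 for the whole table. With 20 rises and 20 falls this median is the midpoint of the smallest rise and the smallest fall, so it does not measure the size of the changes. Higher regions alone were found at 10 of these genes, lower regions alone at 9 and both at 5. Ppard, a close relative of Pparg named after its values were seen, had 3 lower regions. Large falls were found near Nr2c1, which also had 2 higher regions, from 5.12 to 0.84 in an exon of Fgd6, and in an intron of Nr5a1, from 4.75 to 0.84. The largest rise was in an intron of Nr1i2, which encodes the xenobiotic receptor PXR, from 0.77 to 4.69. These 3 regions had a lower level under the floor of 3 reads per library. Changes with both levels above the floor were -3.71 for the mineralocorticoid receptor gene Nr3c2, in an intron of Arhgap10, 2.80 for Esrra, and 2.29 for the bile acid receptor gene Nr1h4, in an intron of Gas2l3. The Esrra region lay between genes, and the nearest start site of a protein-coding gene was that of Prdx5, at 16891 bp. Nr1i2 and Nr3c2 each had 1 higher and 1 lower region.

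Among 20 cofactor genes, which encode the corepressors and coactivators that receptors recruit, 16 had regions (against 47.5% of all genes), 27 higher and 14 lower (65.9% higher, against 60.3% of all). Only higher regions were found at 7 genes, only lower ones at 3 and both at 6. The corepressor gene Nrip1 had 3 higher regions, of which the one over its start site (chr16:76372703-76373549) went from 3.98 to 7.22, a change of 3.24 (2.74 to 3.79). Ppargc1a, whose product PGC-1α coactivates PPARγ, had 5 regions and all were higher, the largest change being 2.76 (2.33 to 3.23). Hr, a corepressor of the vitamin D receptor, had 5 regions and all were lower, the largest change being -3.21 (-3.87 to -2.62) in an exon of the neighboring Fam160b2. The other large falls of this list were -2.59 in the window of the coactivator gene Ncoa3, in an intron of Sulf2, and -2.15 in an intron of Ppargc1b, which encodes PGC-1β. Both of these genes also had 1 higher region.

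Of 32 genes that handle receptor ligands or are textbook targets, 19 had regions (against 47.5% of all genes), 25 higher and 18 lower (58.1% higher, against 60.3% of all). Higher regions alone were found at 9 genes, lower ones alone at 7 and both at 3. All 5 regions at Stra6, which encodes a membrane receptor for retinol uptake, were less accessible, with changes from 4.38 to 0.43 and from 5.09 to 1.42 at a pair of regions whose dKO levels were under the floor, and so were the single ones at Crabp1 and Crabp2, which encode carriers of retinoic acid. By contrast Dhrs9, a retinol dehydrogenase gene, had 4 higher regions, the largest rise lying in an exon of the neighboring Lrp2. Cyp26b1, whose product degrades retinoic acid, had 1 higher region, between genes, that went from 0.77, under the floor, to 4.06. The glucocorticoid targets, grouped after their values were seen, had 2 lower regions at Fkbp5, 4 higher ones at Zbtb16, 1 higher at Sgk1, and 5 higher and 1 lower at Dusp1, the lower one in an intron of Ergic1 with a change of -3.53. Of genes linked to PPARs, grouped likewise, Cd36 and Plin2 had 2 higher regions each, Angptl4 had 1 higher and the fatty acid carrier gene Fabp5 had 1 lower. At Cyp24a1, the vitamin D target whose product degrades vitamin D, 1 region was higher and 2 were lower, and at Cyp27b1, whose product activates it, 2 were higher. Abca1, a target of the liver X receptors, had 1 lower region and 1 higher region, the latter going from 1.54 to 4.88.

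**Figure D4:**
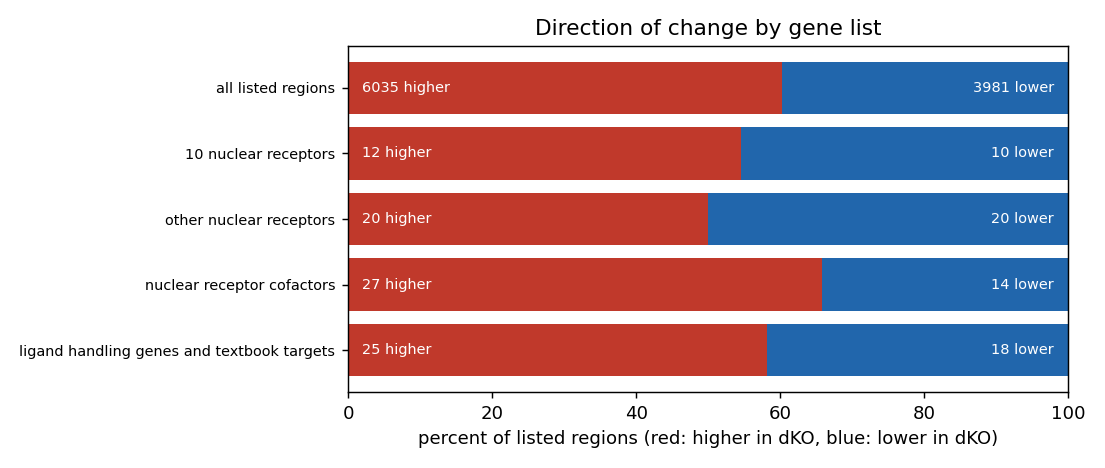
Horizontal bars give the percent of listed regions that were higher (red) or lower (blue) in dKO, with the numbers of regions, for the whole table, the 10 receptors and the 3 further lists. The share of higher regions was 60.3% in the whole table, 54.5% for the 10 receptors and 50%, 65.9% and 58.1% for the other receptors, the cofactors and the ligand-handling and target genes.

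Markers of cell types were counted in the same way. Listed regions were found at 9 of 10 myeloid progenitor markers (16 higher and 3 lower, or 84.2% higher), at 6 of 8 mast cell and basophil markers (9 higher and 4 lower, or 69.2%) and at 3 of 6 erythroid markers (2 higher and 1 lower, or 66.7%). Of all listed regions 60.3% were higher, and 47.5% of all protein-coding genes had a region. The myeloid markers included Itgam, which encodes CD11b, with 4 higher regions, and Ly6c2 and Csf1r with 3 higher each. Csf3r, Mpo and Ctsg had 1 lower region each. In dKO cells the paper reports reduced CD11b and Ly6C by flow cytometry and decreased Csf1r levels. The counts of regions are therefore not a measure of marker levels. Since the table holds changed regions alone, whether the labelled cell type carries its markers could not be checked, and the part of cell state in the receptor regions was not tested.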

How the data were processed

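ATAC-seq of MLL-ENL–transformed mouse cells was analysed in 2 groups of 2 libraries (WT and dKO). The authors aligned reads to mm10 with Bowtie 2 in PiGx, called peaks with MACS and used DiffBind 2.14.0 at a corrected P-value cutoff. Handling of duplicates and the Tn5 offset is not given in the sources used here. The authors' deposited log2 values are means of normalised reads per group, with replicates pooled. The table gives no depth per library, and the study's methods state only an average number of reads over samples. Columns of the authors' own comparison (fold change, p-value, FDR) were not used. The 2 deposited files were identical in content and gave 1 table.

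Regions overlapping by 1 bp or more the GENCODE M21 body of a gene, extended by 50 kb each side, were assigned to it. Sequences came from GRCm38.p6, the assembly of mm10. All 16 RefSeq promoter sequences of the receptors matched it. The central 200 bp were searched for motifs. Counting intervals (95%, Clopper-Pearson on approximate reads) and a floor of 3 reads per library used the lowest level, -0.15, as 1 read per library. Overlap and motif search were tested on simulated data. Python 3.11.15, pandas 2.3.3 and scipy 1.17.1 were used.

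All receptor regions are described. For the other lists, the genes with the 3 largest rises and falls were to be named, and further genes in them were named after their values were seen. Sequences were fixed as the 3 largest rises and falls by deposited means and regions over a start site. The rise at chr15:102230804-102231259 is not shown, because its bases were taken as annotated untranslated, although GENCODE places the region in an intron of Itgb7. Chromosome 18 is not shown either. The genes and lists were chosen with earlier results of these data known.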

Additional observations from a re-analysis of the deposited data

How the results depend on the processing

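No paired analysis was possible because replicates were deposited as 1 mean per group, and no replicate could be left out for that reason. Of 51 values over the regions, 32 counted as unchanged. A count did so when within 1.5 times of the main one, and a median only when equal to it. Assigning regions by the nearest start site left 12 regions, 6 higher and 6 lower, each by at least 2-fold (6 and 6), with a median change of 0.04 and 2 C/EBP carriers. Keeping regions whose larger group mean was above the lower quartile left 5 lower regions (5 by 2-fold), a median of 1.14 and 2 carriers. The median was 1.09 for the gene body alone, 1.14 with 10 kb, 0.89 with 100 kb and 0.01 after centring on the median of the table, a shift that centring makes by construction. A 4-fold threshold left 3 higher and 4 lower regions (13.6% and 18.2%, against 19.3% and 17.3% of the table). Carriers numbered 12 when whole regions were searched (42.9% of the table) and 3 with TTGCNNAA alone (19.3%). For single genes, higher minus lower regions were counted in 63 pairings of a gene with an alternative. The difference was identical in 37, kept its direction in 16, reversed in 0 and had no region left in 10, at Vdr, Nr4a3, Rara and Nr3c1. The lower group lay at or under the floor of 3 reads per library in 3 regions, at Rora, Pparg and Rxra. Against the floor the Rora fold became 6.99 and the Pparg ratio went from 16.7 to 8.66. The counting interval of the Rora fold reached down to 5.46.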
